A study of Homo sapiens with 9 samples.

Results

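The long arm of chromosome 8 from 65 to 85 Mb and from 90 to 140 Mb of hg19, 70 Mb in all, held 652 of the 19861 p300 peaks deposited for this study. Peaks were chosen by their position alone, a peak belonging to the arm when its midpoint lay in either stretch. The stretches themselves were picked from the uneven number of peaks along the chromosomes of these same lists, so the peak density below, and every other difference between the arm and the remaining peaks, is a description and was not tested. The stretch between them, from 85 to 90 Mb, holds a cluster of peaks found in all lists and was left out, as was the dense end of the chromosome from 140 Mb on.

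p300 is a histone acetyltransferase and coactivator. Transcription factors recruit it to enhancers and promoters, where it acetylates histones. It was precipitated from PC3 cells, an established human prostate carcinoma line derived from a bone metastasis. The line is known for extra copies of the long arm of chromosome 8, which carries MYC, a transcription factor gene that drives cell growth and is often gained in prostate cancer. Copy number was not measured in the files used here, so its part in the number of peaks was not tested.

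The untreated group was 2 libraries of PC3 cells without drug, named U1 and U2 here by their replicate numbers. The treated group, whose libraries are titled T2E, was 3 libraries of PC3 cells given 30 µM MnTE-2-PyP for 24 h, named T1, T2 and T3. MnTE-2-PyP is a manganese porphyrin that mimics superoxide dismutase. Every library of both groups came from cells that received 20 Gy and were fixed 1 h later, so no unirradiated state is included. The design text calls the libraries biological replicates. Each comes with 1 peak list, called per library, and 4 input libraries were not analysed here.

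The lists held 2313 and 2039 peaks without the drug and 4922, 10059 and 528 with it, and their read depth is unknown. The number of peaks therefore measures binding and the yield of a library together. U1 and T1 share a run identifier in their peak names, and so do U2 and T3. The labels do not describe these identifiers as batches or say what they stand for, and run identifier is only the name used here. Column 5 of each list is the authors' own value per peak. Its scale is not named, so it is used below as a percentile within its list, where 100 is the highest score.

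The arm held 74 and 63 peaks in U1 and U2. It held 271, 233 and 11 peaks in T1, T2 and T3. The treated lists thus lay both above and below the untreated ones, with the largest and the smallest number in the same group. The mean was 68.5 ± 7.78 peaks without the drug (SD, n = 2) and 171.7 ± 140.4 with it (SD, n = 3). The log2 ratio of these means was 1.33, and T1, T2 and T3 differed more from one another than the means did (exact two-sided permutation p = 0.6, where 0.2 is the smallest possible). The stretches were picked on the peak numbers of these same lists. Neither this p-value nor that of the share below therefore decides on a difference between the groups.

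The direction differed between the pairs with one run identifier. In the pair of U1 and T1 the treated list had 3.66-fold more arm peaks, against 2.13-fold more peaks in the whole list. In the pair of U2 and T3 the untreated list had 5.73-fold more arm peaks, against 3.86-fold more in the whole list. With 1 list per group in a pair, no test was made.

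As a share of its list, the arm took 3.20% (95% Wilson interval 2.56 to 3.998%) and 3.09% (2.42 to 3.93%) of the untreated peaks. It took 5.51% (4.90 to 6.18%), 2.32% (2.04 to 2.63%) and 2.08% (1.17 to 3.69%) of the treated peaks. The intervals cover counting error only. T1 stood above the other 4 lists, and T2 and T3 lay below both untreated lists. The mean share was 3.14% ± 0.0775 without the drug (SD, n = 2) and 3.30% ± 1.91 with it (SD, n = 3), a difference of 0.157 points (exact two-sided permutation p = 1.0). Without T1 the difference was -0.945 points.

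Set against its length, the arm was not dense in every list. It makes up 2.34% of the span covered by the peaks, so the density of peaks on it was 1.37 and 1.32 times the list's genome-wide density in the untreated lists. The same ratio was 2.36, 0.991 and 0.891 in T1, T2 and T3. A density above that of the genome was thus found in 3 of 5 lists, and in T2, the longest, the arm had the genome's average density.

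**Figure D1:**
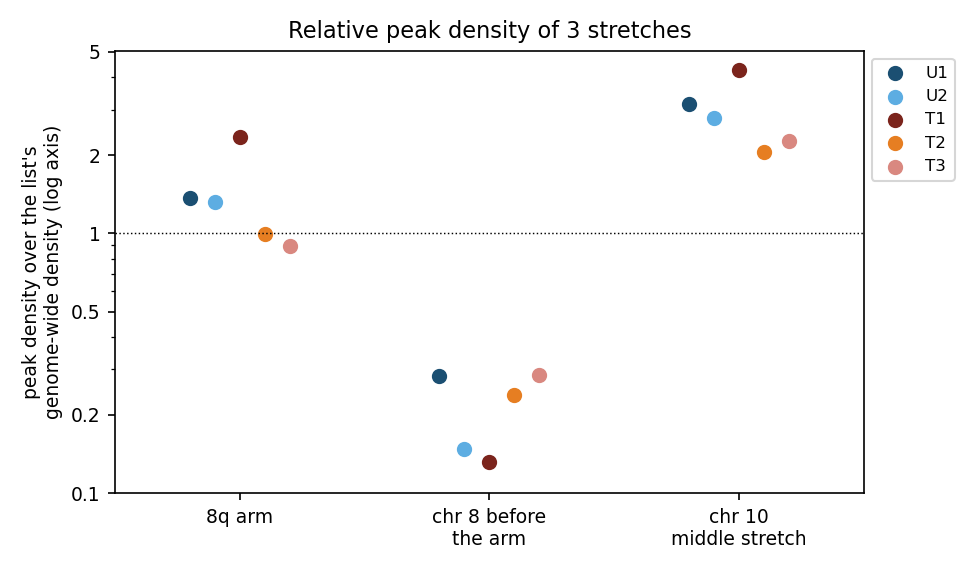
Density of p300 peaks relative to the genome-wide density of the same list (log axis, dotted line at 1) on the 8q arm, on chromosome 8 before the arm and on chromosome 10 from 30 to 75 Mb, 1 point per list. The arm lies between 0.891 and 2.36, chromosome 8 before it between 0.132 and 0.285.

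The contrast within chromosome 8 was larger than that with the genome. From the first peak of the chromosome to 65 Mb, the lists held 13 and 6 untreated and 13, 48 and 3 treated peaks, at 0.281, 0.147, 0.132, 0.239 and 0.285 times the genome-wide density. Peaks per Mb on the arm exceeded those before it 4.86-fold and 8.97-fold in the untreated lists. The excess was 17.8-fold, 4.15-fold and 3.13-fold in T1, T2 and T3. All 5 lists showed the step in the same direction. The edge at 65 Mb was drawn on the peak numbers of these same lists, so this agreement is no independent support for it. The centromere lies well before 65 Mb, so the sparse stretch includes the proximal part of the long arm and the step is not at the border of the short and long arms. The 4 bins of 5 Mb from 45 to 65 Mb held 16, 2, 9 and 8 peaks of the 5 lists together.

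In 5 Mb bins with the 5 lists added together, the 13 bins before 65 Mb held 0 to 16 peaks and the 14 bins of the arm held 25 to 81. The groups of bins did not overlap in this sum, but the arm was drawn on these same numbers, so the separation was not tested. The lowest arm bin, with 25 peaks, was the first one, from 65 to 70 Mb. The bin just before it, from 60 to 65 Mb, held 8. Taken list by list, only T1 was separated, with 0 to 2 peaks per bin before the arm and 5 to 43 on it. In U1 the ranges overlapped, at 0 to 2 and 1 to 10, and in U2, at 0 to 1 and 0 to 8. They also overlapped in T2, at 0 to 10 and 5 to 23, and in T3, at 0 to 1 and 0 to 2.

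**Figure D2:**
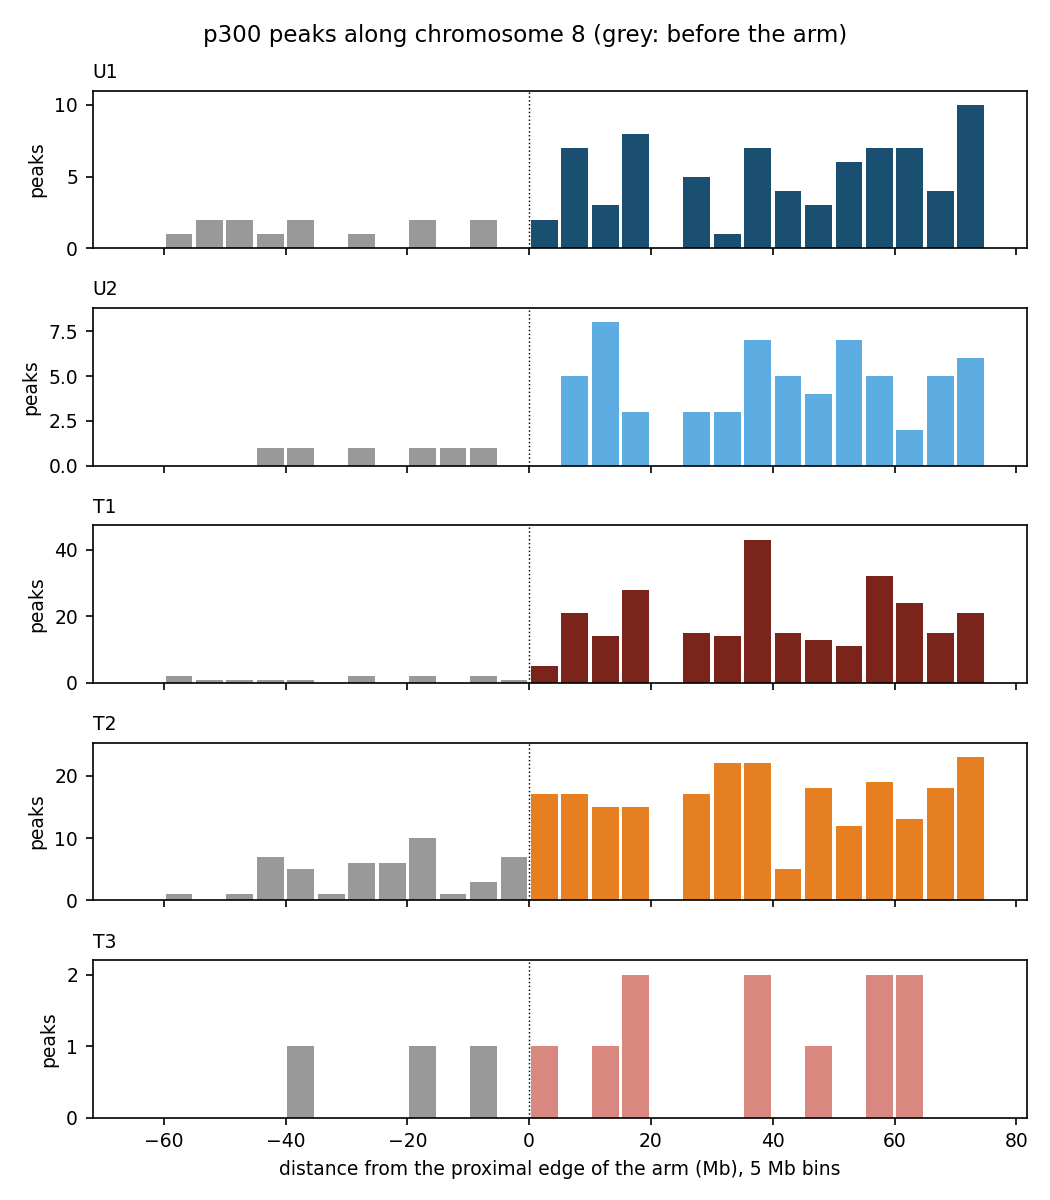
Number of p300 peaks in 5 Mb bins (bars) by distance from the proximal edge of the arm (Mb), 1 panel per list with its own vertical scale. Grey bars lie before the arm and coloured bars on it; the gap within the arm and the chromosome end, both outside the rule, are not drawn. T1 reaches 43 peaks in 1 bin and T3 at most 2.

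The step at 65 Mb was also counted for the strongest peaks. Above the 90th percentile of their list were 4 of 74 and 6 of 63 arm peaks in the untreated lists. In T1, T2 and T3 there were 7 of 271, 25 of 233 and 0 of 11. These are 5.41%, 9.52%, 2.58%, 10.7% and 0% of the arm peaks, against 9.66 to 10.04% of all peaks of a list, so U2 and T2 were close to the background and the other 3 lists below it. Before 65 Mb the same class held 3 and 5 untreated and 5, 10 and 2 treated peaks. Per Mb, peaks of this class were 1.14-fold and 1.03-fold as frequent on the arm as before it in the untreated lists, and 1.20-fold and 2.14-fold in T1 and T2. In these 4 lists the strongest class therefore showed less of a step than the 4.15-fold to 17.8-fold of all peaks. Peaks in the lower part of their list, at or below the 50th percentile, made up 58.1%, 49.2%, 58.3%, 39.1% and 72.7% of the arm peaks of U1, U2, T1, T2 and T3, against 49.98 to 50.6% of all peaks of a list. The arm's share was thus above the background in 3 lists and below it in U2 and T2. Before 65 Mb there were 23 such peaks, 21 of them in T2, 2 in T1 and 0 in the other lists.

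The proximal stretch, from 65 to 85 Mb, held 20 and 16 untreated and 68, 64 and 4 treated peaks. The distal stretch, from 90 to 140 Mb, held 54 and 47 untreated and 203, 169 and 7 treated peaks. Their densities relative to the genome were close in the untreated lists, at 1.30 and 1.18 on the proximal and 1.40 and 1.38 on the distal stretch. T1 had 2.07 and 2.47, and T2 had 0.953 and 1.01. T3 went the other way, with 1.13 on the proximal and 0.794 on the distal stretch, from 4 and 7 peaks.

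The bin with the most arm peaks differed between lists. It was 135 to 140 Mb in U1 with 10 peaks and in T2 with 23. It was 75 to 80 Mb in U2 with 8 peaks and 100 to 105 Mb in T1 with 43. T3 had at most 2 peaks in a bin. Of the 14 bins, those from 100 to 105 Mb and from 120 to 125 Mb were above the genome-wide density in all 5 lists.

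From 100 to 105 Mb the lists held 7 and 7 untreated and 43, 22 and 2 treated peaks. This bin also held 7 of the 44 arm regions found in 2 or more lists, the most of any bin. In T1 its density was 5.23 times that of the genome, and 12 of its 43 peaks lay in the single Mb from 102 to 103.

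The fewest peaks were 1 from 95 to 100 Mb in U1 and 0 from 65 to 70 Mb in U2, where a count of 0 allows up to 0.147% of that list. T1 had its fewest, 5, from 65 to 70 Mb, and T2 had its fewest, also 5, from 105 to 110 Mb. In T3, 7 of the 14 bins held 0 peaks, each of which allows a share of up to 0.568%.

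Over the 14 bins, the numbers of U1 and T1 had the highest Spearman rho of the 10 pairs of lists, 0.78 (Pearson r = 0.64), and those of U2 and T3 the lowest, -0.16 (r = -0.14). Both are pairs with one run identifier. The other pairs lay between 0.0048 and 0.48. The untreated lists had 0.21, and T1 and T2 had 0.25. These values describe 14 stretches of one chromosome and are not independent of the cell line that all lists share. What the shared identifiers stand for is not given.

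The 652 peaks were spread along the arm. T1 and T2 had a peak in 67 and 65 of the arm's 70 windows of 1 Mb, the untreated lists in 46 and 39, and T3 in 11. A further peak of the same list lay within 10 kb for 5 of 74 and 0 of 63 untreated arm peaks. The same held for 28 of 271, 38 of 233 and 0 of 11 treated arm peaks, or 10.3%, 16.3% and 0% of them. Outside the arm the shares were 28.1% and 22.2% in U1 and U2 and 39.3%, 30.9% and 38.5% in T1, T2 and T3. Close neighbours were thus less frequent on the arm in 5 of 5 lists. The peaks of the stretch left out, most of which lie in a cluster, count among the others here, and so do those of clusters elsewhere. Cluster peaks outside the arm numbered 211 and 130 in U1 and U2 and 258, 179 and 158 in T1, T2 and T3. The last are among only 517 peaks. Spacing without the clusters was not computed. Groups of 3 or more peaks with gaps of at most 10 kb numbered 4. These were at 135666770 to 135676569 in U1 with 3 peaks, at 102070911 to 102078438 in T1 with 4, and at 136732025 to 136744103 and 139703070 to 139716336 in T2 with 3 each. The arm held 0 clusters of regions recurring in all lists, which follows from leaving out the stretch from 85 to 90 Mb.

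Peaks next to the edges were of mixed rank. At 65 Mb the first member by midpoint, in T1 from 65029389, stood at the 86.9th percentile. It overlapped a T2 peak with an earlier start, from 65029260, at the 99.1st. The last peak before 65 Mb, in T2 from 64807115, stood at the 82.4th. At 140 Mb the last member, in T1 from 139935176, stood at the 56.8th and the next peak, in T2 from 140034084, at the 8.16th. At the gap, the peaks inside stood at the 82.4th and 61.7th and those outside at the 80.8th and 22.2nd.

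Score ranks were compared next. The median percentile of the arm peaks was 40.6 and 50.7 in U1 and U2. It was 41.9, 58.1 and 31.4 in T1, T2 and T3. The untreated values lay within the range of the treated ones. The means were 45.6 ± 7.10 (SD, n = 2) and 43.8 ± 13.4 (SD, n = 3), a difference of -1.85 points (exact two-sided permutation p = 1.0). The sign turned when U2 (3.17) or T3 (4.33) was left out.

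Against the other peaks of the same list, whose median percentiles ran from 47.0 to 50.9, arm peaks ranked lower in U1 and T1 and T3 and higher in T2. U2 differed by 0.723 points. The mean difference was -5.24 points, and was -1.75 without T3 and -9.32 without T2. It turned to 5.39 points when the stretch from 85 to 90 Mb was counted with the arm, so its sign depends on how the arm was drawn. Against the peaks of chromosome 8 before 65 Mb, whose medians ran from 66.1 to 95.8, arm peaks ranked lower in 5 of 5 lists, by 39.0 points on average (-39.0). That reference was added after the values were seen and rests on 3 to 48 peaks per list.

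**Figure D3:**
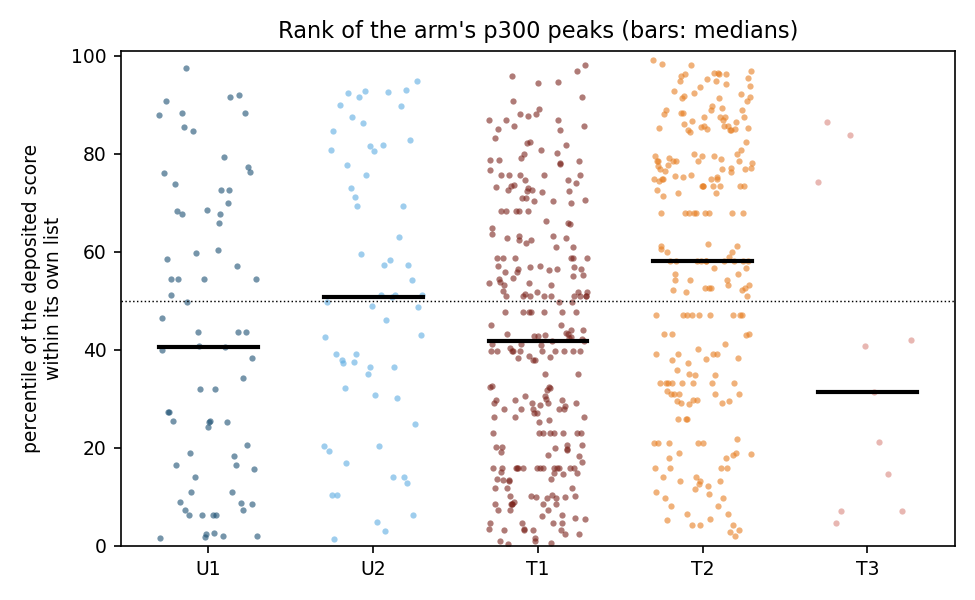
Percentile of the deposited score within its own list for each arm peak (points, spread sideways for visibility), by list, with medians as black bars and a dotted line at 50. The medians run from 31.4 in T3 to 58.1 in T2.

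The highest-ranked arm peak of U1 was at 82085182 to 82085458, with a score of 47.5 at the 97.5th percentile. That of U2 was at 77384360 to 77384791 (12.5, 94.9th percentile) and overlapped no peak of another list. That of T1 was at 114384838 to 114385094 (35.1, 98.1st percentile), that of T2 at 65029260 to 65029759 (31.3, 99.1st percentile) and that of T3 at 102690592 to 102690880 (15.6, 86.4th percentile). The highest peaks of the 5 lists were at 5 different places. Apart from that of U2, each overlapped a peak of at least 1 other list.

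Arm peaks differed little in width from other peaks. Their median width was 231 and 351 bp in U1 and U2 and 224, 322 and 205 bp in T1, T2 and T3. The other peaks of the same lists had medians of 235, 377, 234, 323 and 244 bp, so the arm median was lower in 5 of 5 lists, by 4, 26, 10, 1 and 39 bp in this order. Before 65 Mb on the same chromosome the medians were 230, 352, 207, 300.5 and 226 bp, below those of the arm in U1, T1 and T2 and above them in U2 and T3. Each list has its own narrowest width, 199, 332, 193, 291 and 200 bp in U1, U2, T1, T2 and T3, on the arm and in the whole list. The medians lay not far above it, which leaves little room for a lower arm median. The widest arm peaks were 401, 807, 592, 831 and 290 bp. The treated minus untreated difference of log2(arm width over other width) was -0.042 (exact two-sided permutation p = 1.0).

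Arm peaks were rarely found in a further list. Of the untreated arm peaks, 18 of 74 (24.3%) and 16 of 63 (25.4%) overlapped a peak of any other list by 1 bp or more. Of the treated arm peaks, 31 of 271 (11.4%), 30 of 233 (12.9%) and 4 of 11 (36.4%) did. Outside the arm the shares were 43.5% and 33.5% in U1 and U2 and 28.7%, 14.2% and 85.7% in T1, T2 and T3. Arm peaks were less often shared in 5 of 5 lists, by 19.0 points on average (-19.0). The difference was smallest in T2, and without T3 the mean was -11.2 points. Low sharing is partly built into the choice of the arm, because the stretch from 85 to 90 Mb, where 72.5 to 100% of the peaks are shared, was left out and counts among the other peaks. With that stretch counted with the arm, the mean difference turned to 5.71 points.

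Part of the sharing elsewhere lies in clusters of regions that recur in all 5 lists. With the peaks of these 17 clusters removed, a setting added after the values were seen, the other peaks were shared at 37.9% and 28.8% in U1 and U2 and 25.0%, 12.6% and 79.9% in T1, T2 and T3. Arm peaks were then less often shared in 4 of 5 lists, the exception being T2 with a difference of 0.281 points. The mean was -14.8 points.

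**Figure D4:**
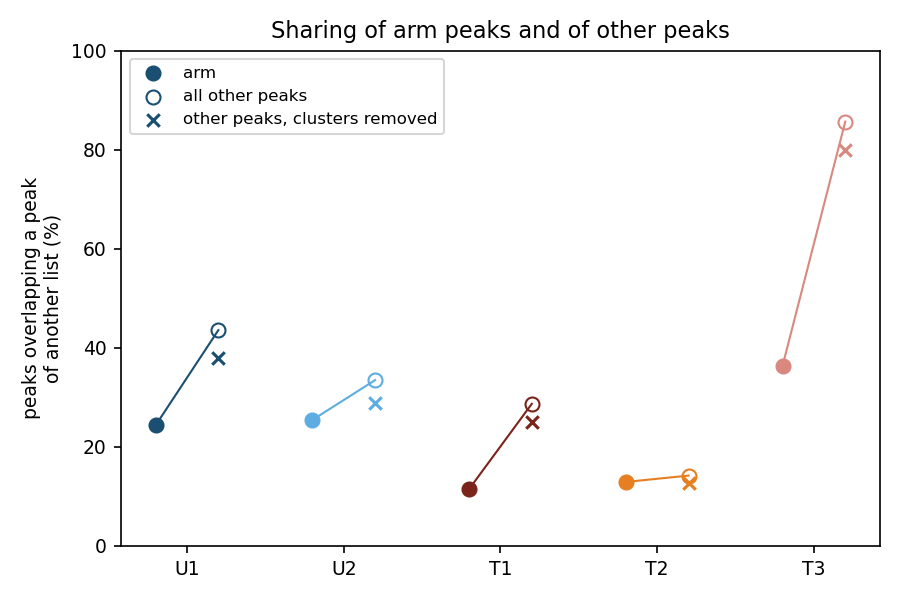
Percentage of peaks that overlap a peak of another list, by list, for the arm (filled points), for all other peaks (open points, joined by a line) and for the other peaks with recurrent clusters removed (crosses). Each filled point lies below its open point, from 12.9% against 14.2% in T2 to 36.4% against 85.7% in T3.

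Pairs of lists shared few arm peaks. The untreated lists shared 7 arm peaks, 9.46% of those of list 1 and 11.1% of those of list 2. T1 and T2 shared 21 peaks of the first and 20 of the second, or 7.75% and 8.58%. Between the groups, U1 shared 8 of its arm peaks with T1 and 8 with T2, 10.8% each. U2 shared 8 (12.7%) and 7 (11.1%) with them. As a percentage of the list with fewer arm peaks, the pairs without T3 ran from 8.58% to 12.7%, within groups and between them. Outside the arm, with all clusters included, the same pairs ran from 17.0% for U1 and U2 to 32.7% for U1 and T2. T3 shared 3 and 4 of its 11 arm peaks with T1 and T2 and 1 with each untreated list.

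Over all 10 pairs, same-group overlap exceeded between-group overlap by 10.2 points. The exact one-sided permutation p was 0.1, the smallest possible. The difference rested on the 11 peaks of T3, and without that list it was -1.51 points. Outside the arm T3 also shared more of its peaks with T1 and T2 (64.0% and 74.7%) than with U1 and U2 (54.7% and 39.5%). The order is thus not particular to the arm. T1 and T2 are also the longest lists, and the part of list length in this order was not tested.

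Elsewhere in the genome, peaks shared with another list ranked higher than peaks of 1 list, with median percentiles of 69.1 against 42.5 and 68.0 against 42.6 in the untreated lists. In T1, T2 and T3 they were 77.2 against 43.9, 82.4 against 47.0 and 55.4 against 30.2. On the arm this held in 3 of 5 lists. It was 57.0 against 36.3 in U1, 74.1 against 58.1 in T2 and 63.0 against 14.6 in T3. U2 had 48.8 for shared against 51.1 for single arm peaks, and T1 had 35.0 against 42.5. The difference between the arm and the rest was not tested.

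Merging overlapping peaks of all lists gave 597 arm regions. Of these, 553 (92.6%) came from 1 list, against 89.6% of the 16701 regions of all chromosomes. The remaining 44 (7.37%) came from 2 or more lists, against a background of 10.4%. They were 37 regions in 2 lists, 5 in 3, 1 in 4 and 1 in all 5.

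The region in all 5 lists, 1 of 597 (0.168%) against a background of 0.886%, was at 100041291 to 100041833. Its scores were 23.4 and 8.03 in U1 and U2 and 16.8, 13.7 and 6.36 in T1, T2 and T3. The region in 4 lists, at 113542979 to 113543385, had 20.0 and 10.4 without the drug and 21.5 and 20.7 in T1 and T2. Both carried p300 with and without MnTE-2-PyP. The region at 67225345 to 67225823 was in U1 (19.5) and T1 (25.1) and T2 (22.4). That at 77167245 to 77167901 was in U2 (4.73) and T1 (13.6) and T2 (2.90).

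Regions held by U1 and U2 alone numbered 4 of 597 (0.670%), against a background of 0.186% of all regions. That share is 4 of the 31 such regions in the genome. They were at 84290469 to 84290967, with scores of 5.55 and 10.5 in U1 and U2, and at 115516682 to 115517149 (25.7 and 5.13). The others were at 118203918 to 118204343 (8.47 and 5.29) and 135676176 to 135676771 (7.30 and 3.82). Their peaks ranked from the 16.8th to the 92.6th percentile, with a median of 50.01, so most were not among the strong peaks of their lists. Single regions were not tested, since presence in 2 against 3 lists cannot give an exact Fisher p under 0.1. When every list was cut to its 528 highest scores, 0 such regions were found, and 0 among peaks with scores at or above the pooled median.

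Regions held by T1, T2 and T3 alone numbered 2 of 597 (0.335%), against a background of 0.24%. The region at 102690369 to 102690935 had scores of 10.1, 11.3 and 15.6 in T1, T2 and T3. That at 122891426 to 122891727 had 28.9, 8.29 and 14.2. These 2 hold the highest-scoring arm peaks of T3, at the 86.4th and 83.9th percentile of that list. With 528 peaks per list 0 were found.

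The wider set, absent from U1 and U2 and present in at least 2 treated lists, held 17 of 597 regions (2.85%), close to the background of 2.93%. Of the 17, 14 were in T1 and T2 alone, the longest lists, and 1 was in T2 and T3. Its strongest were at 65029260 to 65029759 (13.3 and 31.3 in T1 and T2) and at 101170390 to 101170822 (14.6 and 14.4). The set fell to 3 regions without T1 and 2 without T2. Regions of 1 untreated and 1 treated list numbered 18, or 3.02%, close to the background of 3.33%.

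The MYC band, from 127 to 130 Mb, was described apart. In the order of genes of the RefSeq table for GRCh38, MYC lies between the long noncoding RNA genes CASC11 and PVT1, with POU5F1B the next coding gene on one side and GSDMC on the other. No gene positions of hg19 were used, so the peaks below are given by coordinate and their distance to MYC is not given.

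The band held 21 peaks, 3 and 1 in U1 and U2 and 9, 6 and 2 in T1, T2 and T3. As a share of their lists these were 0.130% and 0.0490% without the drug and 0.183%, 0.0596% and 0.379% with it. The treated values lay on both sides of that of U1. The mean was 0.0894% ± 0.0570 (SD, n = 2) against 0.207% ± 0.161 (SD, n = 3), a difference of 0.118 points (exact two-sided permutation p = 0.4). It was 0.0319 points without T3, 0.191 without T2 and 0.0774 without U2. The highest treated share rests on 2 peaks of 528, with a 95% Wilson interval of 0.104 to 1.37%.

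Within the arm the band was not rich in peaks. It makes up 4.29% of the arm's length and held 4.05% and 1.59% of the arm peaks of U1 and U2 and 3.32%, 2.58% and 18.2% of those of T1, T2 and T3, the last being 2 of 11. The treated minus untreated difference was 5.21 points (exact two-sided permutation p = 0.6) and was 0.127 points without T3 and 7.93 without T2. Among the 66 overlapping 3 Mb windows of the arm, taken in steps of 1 Mb, 48 held more peaks than the band and 15 held fewer. The median window held 26.5 peaks and the range was 13 to 55. These totals are carried by T1 and T2, the longest lists. List by list, the band held 3 peaks in U1, equal to its median window, and 1 in U2 against a median of 3. T1 had 9 against 10.5 and T2 had 6 against 10, while the 2 peaks of T3 were the most it had in any window. The band thus lay below the median window in 3 of 5 lists.

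Band peaks also ranked low. Their percentiles ran from 1.86 to 85.3 with a median of 34.3, 17 of 21 lay in the lower part of their list and 0 of 21 were above the 90th. Of all 652 arm peaks, 331 lay in the lower part and 42 (6.44%) were above the 90th. Over all peaks of a list these shares were 49.98 to 50.6% and 9.66 to 10.04%, so 0 of 21 is not read as a difference. The T2 peaks from 127773117 and 128804923 stood at the 47.0th percentile, with a score of 4.89 that 719 peaks of T2 have. The highest of each list were at 127551290 to 127551488 in U1 (score 10.5, 67.7th percentile) and 129909098 to 129909576 in U2 (4.20, 30.8th). In the treated lists they were at 128984352 to 128984549 (8.27, 61.7th), 127353981 to 127354395 (7.25, 85.3rd) and 127224614 to 127224871 (5.63, 31.4th) for lists 1, 2 and 3. They lay at 5 different places.

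The 21 peaks merged into 19 regions, of which 1 was found in more than 1 list. Of all arm regions 7.37% were in 2 or more lists, and of all regions 10.4%, so 1 of 19 is not read as a difference. It lay at 129909098 to 129909637, with scores of 3.64 in U1, 4.20 in U2 and 6.26 in T1. All 3 peaks ranked below the 33rd percentile of their lists, at 1.86, 30.8 and 32.2. Among the band regions, 0 were held by U1 and U2 alone and 0 by at least 2 treated lists alone. The shares over all regions were 0.186% and 2.93%, so with 19 regions these counts of 0 say little about the band. The longest stretch of the band without a peak in any list ran from 128984550 to 129701218, or 717 kb.

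**Figure D5:**
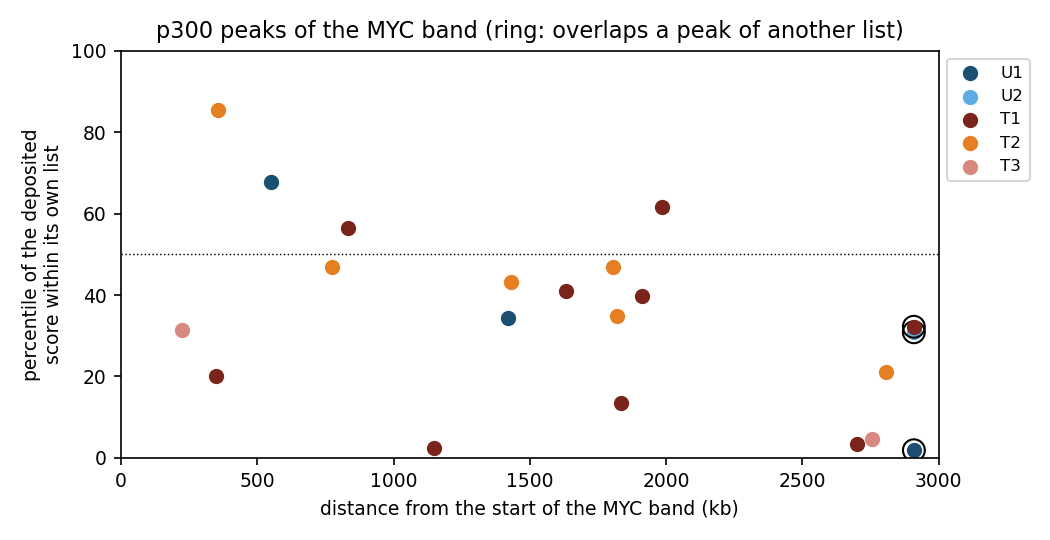
The 21 p300 peaks of the MYC band by distance from the start of the band (kb) and percentile of the deposited score within their own list, coloured by list, with a ring around peaks that overlap a peak of another list. The only ringed peaks, 3 in number, lie together near the distal end, and 17 of 21 points lie below the dotted line at 50.

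Chromosome 10 from 30 to 75 Mb, another stretch with many peaks, held 838 peaks at 3.14 and 2.77 times the genome-wide density in U1 and U2 and 4.25, 2.06 and 2.27 times in T1, T2 and T3. In each of the 5 lists its density was above that of the arm, and so was the share of its peaks overlapping another list, at 33.0% and 30.6% in U1 and U2, 17.2% and 21.2% in T1 and T2, with 9 of 18 in T3. The order of T1 and T2 was the same in both places, with the higher relative density in list 1. These values are a description and were not tested.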

How the data were processed

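p300 ChIP-seq libraries of irradiated PC3 cells were sequenced on Ion Proton, per the labels' protocols. The submitters' processing notes name MACS2 and hg19. Aligner, versions, threshold and matching of inputs: not given in the sources used here. The deposited lists give position, name and a score per peak whose scale is not named.

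The arm, the results and the settings were chosen with earlier results of these data known. Starts were converted to count from 1. Percentiles are ranks of the score within a list, ties averaged. Regions are unions of peaks with at least 1 bp in common. The span is the sum over chromosomes from the first to the last peak. Recurrent clusters are regions in all 5 lists within 50 kb of one another.

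The list was the unit of comparison. Groups were compared by exact permutation over the 10 ways of dividing 5 lists into 2 and 3. The arm was compared with other peaks by the mean difference over 5 lists, with no test, since its stretches were drawn on these peaks; the planned sign-flip p-values are not given for that reason. Named were regions in all 5 lists, in both untreated or all 3 treated lists only, or in 2 or more lists in the MYC band; the highest-ranked peak per list of arm and band; and the bins with most and fewest peaks. Other regions or stretches were chosen after their values were seen. Settings varied were a score minimum, equal numbers of peaks, the arm's edges, 50% overlap, merging within 500 bp, group medians, pairing and each list left out. A common score minimum, chromosome 8 before the arm as reference and removal of clusters were added after seeing the data. On simulated data the merging recovered 200 of 200 planted regions. No sequence is shown. Python 3.11.15, numpy 2.4.6, pandas 2.3.3 and matplotlib 3.10.9 were used.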

Additional observations from a re-analysis of the deposited data

Results flagged for a closer look

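The pairs of lists that share a run identifier moved in opposite directions for 4 measures, with 1 list per group in each pair, so the difference was not tested. The log2 ratio of treated over untreated arm peaks was 1.87 in the pair of U1 and T1 and -2.52 in the pair of U2 and T3. The share of the list on the arm differed by 2.31 points in the first pair and by -1.01 points in the second. The median percentile of arm peaks differed by 1.23 and -19.2 points, and the part of the arm's peaks in the MYC band by -0.733 and 16.6 points. T3 has 11 arm peaks and 2 band peaks, on which the values of the second pair rest.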

How the results depend on the processing

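Among 157 values under other settings, 18 changed sign, 12 counts moved by more than 1.5 times and 127 did neither. The 528 top-scoring peaks of each list turned the log2 ratio of arm peaks to -0.49, the share difference to -0.789 points and the width difference to 0.085. They left 0 regions in both untreated lists only, 0 in all treated lists only and 2 in 2 or more treated lists. Scores at or above the pooled median of 5.90 left 0 and 5 of the first and last of these and gave -0.00066 points for the band's share of the list and -0.833 points for its share of the arm. Group medians turned the share difference to -0.828 points and the width difference to 0.00092. Including the gap from 85 to 90 Mb raised the regions in all 5 lists to 19 and turned the arm minus rest difference to 5.71 points for sharing and 5.39 for rank. Against chromosome 8 before 65 Mb the width difference was 0.023.

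For the replicate block, lists numbered 1 and 2 in both groups gave a rank difference of 4.33 points and a width difference of 0.030, both of opposite sign; the log2 ratio of arm peaks was 1.88. Deviations from the group means over 602 bins of 5 Mb had r = 0.34 for the lists numbered 1 and 0.59 for those numbered 2. With 2 untreated lists their deviations mirror each other, so U2 with T1 had -0.34 and U1 with T2 had -0.59. U1 and U2 had 0.18 and -0.18 with T3. The values for the numbered pairs are therefore not separate observations. With 2 pairs and no shared source named, the lists share only a number. Pairing by run identifier gave a log2 ratio of arm peaks of -0.32.

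Leaving out each list in turn gave 0.83 to 1.88 for the log2 ratio of arm peaks, -0.945 to 0.767 points for the share, -8.99 to 4.33 for rank, -0.093 to 0.030 for width and -1.51 to 13.8 for overlap. Sharing against other peaks ran from -22.9 to -11.2 points. Region counts ran from 4 to 61 (both untreated only), 2 to 16 (all treated only), 2 to 18 (2 or more treated) and 1 to 2 (all lists), as a set is then defined by fewer lists. With 2 and 3 lists, unknown depth and 11 arm peaks in T3, differences in density could not be told apart from library yield.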
